A study of Mus musculus with 12 samples.

Results

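The Myc, Max and Mxd network was followed through 10 genes, Myc, Mycn, Mycl, Max, Mxd1, Mxd3, Mxd4, Mxi1, Mnt and Mga, which were taken by symbol from the 55401 genes of the count table. Each symbol matched 1 gene, and all 10 passed the filter on low counts that left 25771 genes for testing. The counts come from RNA of Pax7-ZsGreen+ cells sorted from hind limb skeletal muscle of mice. All mice carried Cxcr4 FL/FL and Pax7-ZsGreen and all received tamoxifen at 80 mg/kg for 5 days. By the study's methods they were then kept on a tamoxifen diet. KO mice also carried Pax7-creERT2, so that Cxcr4, a chemokine receptor, was deleted in Pax7 cells only, whereas WT mice had no cre. Freshly sorted cells are called quiescent (4 WT and 4 KO libraries) and cells cultured overnight are called activated (2 WT and 2 KO libraries). The culture medium held serum and fibroblast growth factor. Muscle was digested with enzymes before sorting. The paper describes this isolation as a time of very early activation, with MYOD1 protein in almost all sorted cells of both genotypes. The part of digestion and sorting in the levels of freshly sorted cells was not tested. The study's methods give the age of its mice as 3 to 4 months. The labels do not say whether libraries of a group came from separate mice, so p-values measure the spread between these libraries.

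Myc, Mycn and Mycl encode transcription factors of the basic helix-loop-helix leucine zipper class that bind DNA only as a pair with Max, and they are known for driving ribosome production, metabolism and cell division. Max also pairs with the Mxd proteins, Mnt and Mga, which oppose Myc: Mxd1, Mxd3, Mxd4, Mxi1 and Mnt recruit the Sin3 histone deacetylase corepressor, and Mga belongs to a variant Polycomb complex, PRC1.6. All of these pairs recognise the E-box CACGTG. Myc mRNA and protein are short lived, and in satellite cells, the stem cells of skeletal muscle, Myc is known as part of the growth response that follows stimulation.

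The start regions of the members are shown first, since several members also carry the network's own binding letters there. RefSeq windows of 300 bases around the annotated start were found for 9 of the 10 members (11 windows, of which 3 belong to Mxi1), and none was found for Myc. The E-box CACGTG, which reads the same on both strands, occurred in 3 of these 11 windows (27.27%) against 2349 of 32851 windows of the same length over all genes (7.15%). The looser CANNTG, which includes CACGTG, occurred in 8 of the 11 windows and in 72.31% of all windows. The 5 windows below belong to members whose mRNA differed between states in both genotypes, and to Mnt as the remaining carrier of CACGTG. They are written on the strand of the gene in GRCm38.p6 coordinates, with CACGTG in capitals. The match begins 3 bases before the RefSeq start in Max, 219 before it in Mxd4 and 123 before it in Mnt. GENCODE starts Max at chr12:76962201, near the downstream end of its window, so the match lies further from that start. Mycn lies at chr12:12941787-12942086 (minus strand), Max at chr12:76962199-76962498 (minus), Mxd1 at chr6:86669110-86669409 (minus), Mxd4 at chr5:34187661-34187960 (minus) and Mnt at chr11:74830674-74830973 (plus).
Mycn: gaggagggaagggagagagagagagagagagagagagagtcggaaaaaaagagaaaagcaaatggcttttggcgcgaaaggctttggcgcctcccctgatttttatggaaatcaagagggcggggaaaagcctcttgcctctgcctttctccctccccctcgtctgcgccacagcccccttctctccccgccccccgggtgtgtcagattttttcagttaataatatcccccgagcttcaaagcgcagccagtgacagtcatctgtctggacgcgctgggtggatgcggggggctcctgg
Max: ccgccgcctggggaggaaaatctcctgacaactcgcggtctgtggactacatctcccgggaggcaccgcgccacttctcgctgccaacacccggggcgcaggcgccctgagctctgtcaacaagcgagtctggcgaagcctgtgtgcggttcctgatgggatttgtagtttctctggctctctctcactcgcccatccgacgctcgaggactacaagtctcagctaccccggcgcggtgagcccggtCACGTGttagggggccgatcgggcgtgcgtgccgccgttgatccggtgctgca
Mxd1: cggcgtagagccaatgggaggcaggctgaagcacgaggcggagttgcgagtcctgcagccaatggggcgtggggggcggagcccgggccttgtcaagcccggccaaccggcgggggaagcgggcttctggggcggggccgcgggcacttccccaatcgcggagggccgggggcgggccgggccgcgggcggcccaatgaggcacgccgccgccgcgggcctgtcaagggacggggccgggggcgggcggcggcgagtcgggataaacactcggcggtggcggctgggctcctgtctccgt
Mxd4: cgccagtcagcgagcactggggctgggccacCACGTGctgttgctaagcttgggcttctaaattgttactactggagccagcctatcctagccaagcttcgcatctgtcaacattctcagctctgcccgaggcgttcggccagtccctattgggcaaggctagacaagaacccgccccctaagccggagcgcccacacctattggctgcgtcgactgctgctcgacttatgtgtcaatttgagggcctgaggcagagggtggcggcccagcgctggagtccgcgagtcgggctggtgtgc
Mnt: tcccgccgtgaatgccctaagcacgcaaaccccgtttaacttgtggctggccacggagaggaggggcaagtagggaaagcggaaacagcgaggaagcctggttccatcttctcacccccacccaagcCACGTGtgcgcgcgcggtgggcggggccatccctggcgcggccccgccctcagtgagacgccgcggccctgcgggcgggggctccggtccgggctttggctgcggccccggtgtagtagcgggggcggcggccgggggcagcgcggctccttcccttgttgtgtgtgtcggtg
A match of letters is a description of the window and no evidence of binding, and the median GC content of all windows was 52.7% against 64.7% in Max, 61.0% in Mxd4 and 70.7% in Mnt.

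Quiescent libraries held 12775593 to 23717013 counts and activated libraries 3172164 to 5427280, and the share of CT010467.1, whose sequence is ribosomal RNA, was 0.295 to 0.807% in quiescent and 11.5 to 40.3% in activated libraries. Cxcr4 was 12.5 to 21.2 CPM in quiescent KO and 59.1 to 112 CPM in quiescent WT libraries. In activated cells Cxcr4 was lower in KO by 1.35 on the log2 scale (-1.35, SE 0.46). That difference did not pass (adjusted p = 0.381, edgeR). Summed levels of 8 satellite cell markers, all with counts in every group, were 3178 to 5210 CPM in quiescent and 1047 to 1631 CPM in activated libraries, whereas 8 mature muscle fibre markers summed to 261 to 879 CPM and 6188 to 15262 CPM. Markers of other cell types had counts in every group, with none at 0. From quiescent to activated libraries, 5 smooth muscle and pericyte markers summed to 448 to 1705 and 159 to 342 CPM, 4 Schwann cell markers to 254 to 604 and 57.8 to 200.3 CPM, and 7 endothelial markers to 275 to 1183 and 91.5 to 678 CPM. The sums were 270.1 to 744 and 127 to 243 CPM for 6 fibroadipogenic markers and 77.3 to 287 and 38.4 to 60.0 CPM for 7 hematopoietic markers. In WT 4 of 5 smooth muscle, 3 of 4 Schwann, 3 of 7 endothelial, 3 of 6 fibroadipogenic and 3 of 7 hematopoietic markers fell, and in KO 5, 3, 2, 3 and 4 in the same order, while 1 fibroadipogenic marker rose. In sorted bulk cells, fewer cells of a type and less RNA per cell cannot be told apart. Summed CPM of 4 Y-linked genes was 358 to 660 in quiescent and 0 to 2.51 in activated libraries, and Xist was 1.20 to 7.17 and 451 to 817 CPM, so that cell state and sex cannot be told apart in any activated against quiescent comparison. The part of these shifts in the differences between states below was not tested. All CPM values are TMM-scaled (edgeR) counts relative to library size, and fold changes are tested by edgeR's quasi-likelihood test with Benjamini-Hochberg adjustment over the 25771 genes. Unless stated, a gene rose or fell where the adjusted p was under 0.05.

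Levels of different genes were compared as CPM per kilobase of exon, over the length of all annotated exons of a gene together. Genes with annotated exons that are not used in these cells are understated on this scale. On it, Myc was by far the most abundant member. It stood at 646 ± 138 in WT quiescent, 705 ± 104 in KO quiescent (SD, n = 4), 241 ± 13.1 in WT activated and 303 ± 15.9 in KO activated libraries (SD, n = 2). Among 21817 protein-coding genes its level per length ranked between 32 and 57 in single quiescent libraries and between 73 and 102 in activated libraries. Max came next with 23.2 ± 6.13, 22.0 ± 5.85, 45.8 ± 2.32 and 49.95 ± 1.18 in the same order of groups. Both steps, from Myc to Max and from Max to the next gene, exceeded the larger SD of the neighbours in all 4 groups. The middle of the order was close: in WT quiescent libraries Mxd4 (9.65 ± 1.68) and Mnt (8.17 ± 1.19) did not differ beyond their spread, nor did Mxd1 (6.28), Mycn (5.85), Mxi1 (5.39) and Mga (5.20), each set beside the next of these 4. Mxd3 (0.814 ± 0.398) and Mycl (0.676 ± 0.152) were lowest and did not differ beyond their spread either. In WT activated libraries Mga (7.80 ± 2.75) and Mnt (7.31 ± 2.30) followed Max, and Mycn (0.895 ± 0.425) and Mycl (0.0542 ± 0.0767) closed the order. Of the summed level per length of Myc, Mycn and Mycl, Myc made up at least 98.8% in each library. The deposited FPKM, 1 value per group, lay within 1 SD of the group means of level per length for 40 of 40 values, at 0.965 to 1.07 times those means.

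**Figure D1:**
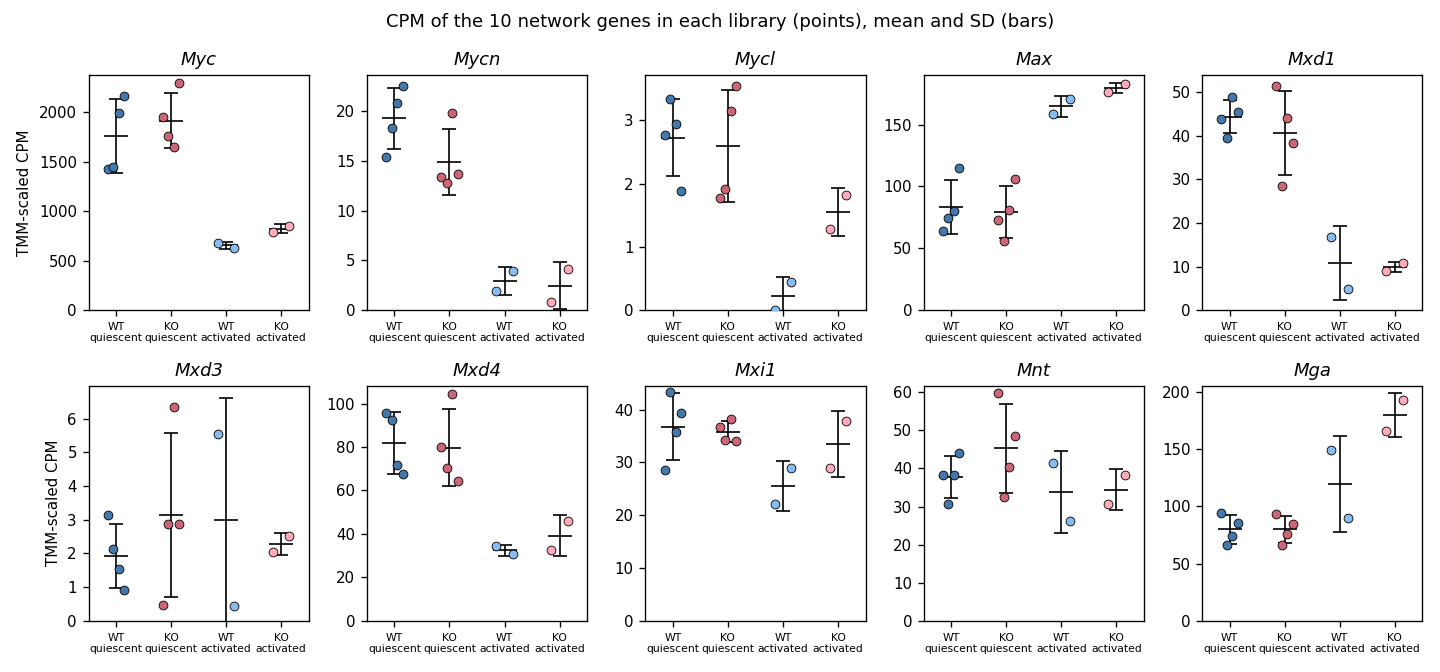
Level of each member (y axis, TMM-scaled CPM from 0, a separate scale per gene) in every library of the 4 groups (x axis); points are libraries, the wide mark is the mean and the bars are 1 SD (cut at 0), with n = 4 in quiescent and n = 2 in activated groups. Myc lies between 1428 and 2294 CPM in quiescent and between 629 and 854 CPM in activated libraries, and Max lies between 56.0 and 115 and between 159 and 183 CPM.

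Between quiescent and activated cells the mRNA of Myc, its paralogs, Mxd1 and Mxd4 went down in WT, and that of Max went up. Of the 10 members 6 passed the test, 1 higher (Max) and 5 lower (Myc, Mycn, Mycl, Mxd1, Mxd4), where 29.8% of all tested genes passed, 11.5% higher and 18.3% lower. In KO cells 6 members also passed, 2 higher (Max, Mga) and 4 lower (Myc, Mycn, Mxd1, Mxd4), where 33.7% of all tested genes passed, 13.3% higher and 20.4% lower. With a log2 fold change over 1 required as well, 5 members passed in WT (26.8% of all tested genes) and 6 in KO (30.3%). The states did not overlap for 6 members in WT and 6 in KO, beside 56% and 54.4% of all tested genes. The median log2 fold change of the members was -0.93 in WT and -0.60 in KO, beside -0.92 and -0.96 over all tested genes. Most of that general fall lies in weakly expressed genes: over the 9554 genes with an average log2 CPM over 3 the median was -0.12 in WT and -0.09 in KO.

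Myc (chr15:61985391-61990374, plus strand) had 1428, 1445, 1989 and 2159 CPM in the 4 WT quiescent libraries and 679 and 629 CPM in the WT activated libraries. In KO it had 1950, 1764, 1652 and 2294 CPM in quiescent and 793 and 854 CPM in activated libraries. In both genotypes each activated library lay below each quiescent one. Myc fell 2.68-fold in WT (log2 fold change -1.42, SE 0.28, adjusted p = 0.000652 in edgeR's test) and 2.33-fold in KO (-1.22, SE 0.28, adjusted p = 0.00209). Without KO activated replicate 1 the fall in KO kept its size (-1.16) but not the call (adjusted p = 0.0537).

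Mycn (chr12:12936093-12941914, minus strand), the paralog known from the embryo and from neural tumours, was far lower than Myc per length, and its fold change was larger in size. Its WT libraries held 15.4, 18.3, 20.8 and 22.5 CPM in quiescent and 1.96 and 3.94 CPM in activated cells. Its KO libraries held 13.4, 12.8, 19.8 and 13.7 CPM in quiescent and 0.771 and 4.11 CPM in activated cells. The states did not overlap in either genotype, and the activated values rest on 12, 9, 3 and 18 counts per library. The fall was 7.07-fold in WT (log2 fold change -2.82, SE 0.51, adjusted p = 0.000282, edgeR) and 5.98-fold in KO (-2.58, SE 0.50, adjusted p = 0.000468). Its size moved with single activated libraries: the WT value was -2.21 without replicate 1 and -3.23 without replicate 2, and the KO value was -1.87 and -4.25, all still past the threshold.

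Mycl (chr4:122995652-123002485, plus strand), the third paralog, was near the limit of detection in activated cells. In WT it had 2.77, 3.33, 2.94 and 1.88 CPM in quiescent libraries, and 0 and 1 count in the activated libraries, the latter 0.438 CPM. In KO it had 1.77, 1.91, 3.16 and 3.54 CPM in quiescent and 1.28 and 1.83 CPM in activated libraries. The WT states did not overlap, while KO activated replicate 2 lay above the lowest KO quiescent library. From the 206 WT quiescent counts and the 1 WT activated count, scaled by library size, the ratio was 22.5 (95% exact interval 4.00 to 895, counting error only). In KO, 213 against 13 counts gave 1.72 (0.982 to 3.27). The adjusted p of edgeR was 0.00651 in WT, and 0.232 when WT activated replicate 1, the library without a count, was left out, and it was 0.411 in KO. Without WT activated replicate 2 no WT activated count remained.

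Max (chr12:76937269-76962201, minus strand), the shared partner of the other members, moved the opposite way. It had 64.0, 74.7, 79.8 and 115 CPM in WT quiescent and 159 and 171 CPM in WT activated libraries. It had 72.5, 56.0, 81.4 and 106 CPM in KO quiescent and 177 and 183 CPM in KO activated libraries. Each activated library lay above each quiescent one of its genotype. Max rose 1.98-fold in WT (log2 fold change 0.98, SE 0.27, adjusted p = 0.00964, edgeR) and 2.27-fold in KO (1.18, SE 0.27, adjusted p = 0.00206). Without WT activated replicate 2, the shallowest library, the WT rise was as large (0.99) with an adjusted p of 0.0546. Stretches of 245 bases with about 91% identity to Max transcripts occur in Gm3774 and Gm45596, which had at most 1.91 CPM in any library.

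Among the repressive partners, Mxd1 and Mxd4 fell and the other 3 did not pass the test. Mxd1 (chr6:86647042-86669161, minus strand), a gene typical of cells that leave the cell cycle and differentiate, had 43.9, 39.6, 48.9 and 45.4 CPM in WT quiescent and 16.8 and 4.82 CPM in WT activated libraries. Its KO values were 51.6, 28.6, 44.2 and 38.4 CPM in quiescent and 8.99 and 10.7 CPM in activated libraries. It fell 3.85-fold in WT (log2 fold change -1.95, SE 0.38, adjusted p = 0.00055, edgeR) and 4.12-fold in KO (-2.04, SE 0.38, adjusted p = 0.00036), with no overlap between states. The WT activated libraries differed widely, and the WT log2 fold change was -3.13 without replicate 1 and -1.34 without replicate 2 of that group, both still past the threshold.

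Mxd4 (chr5:34173883-34187720, minus strand) had 95.7, 92.4, 71.8 and 67.5 CPM in WT quiescent and 34.3 and 30.7 CPM in WT activated libraries. In KO it had 80.0, 70.4, 104.5 and 64.3 CPM in quiescent and 32.6 and 45.9 CPM in activated libraries. The states did not overlap in either genotype. The fall was 2.51-fold in WT (log2 fold change -1.33, SE 0.28, adjusted p = 0.00138, edgeR) and 2.03-fold in KO (-1.02, SE 0.28, adjusted p = 0.00792), and the KO value became -0.81 with an adjusted p of 0.171 without KO activated replicate 1. The antisense gene Gm42846 shares 514 exon bases with Mxd4 and had no count in any of the 12 libraries.

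Mxi1 and Mnt did not pass between states in either genotype. Mxi1 (chr19:53310518-53375810, plus strand) ranged from 28.5 to 43.4 CPM in quiescent and from 22.2 to 37.9 CPM in activated libraries, with log2 fold changes of -0.54 in WT (95% interval -1.09 to 0.02) and -0.10 in KO (-0.63 to 0.44). Mnt (chr11:74830920-74845725, plus strand), the broadly expressed antagonist of Myc, ranged from 30.7 to 59.9 CPM and from 26.3 to 41.3 CPM, with log2 fold changes of -0.15 (-0.75 to 0.46) and -0.40 (-1.003 to 0.21). The adjusted p from edgeR was 0.131 and 0.776 for Mxi1 and 0.706 and 0.28 for Mnt, in WT and KO. The states overlapped for both genes in both genotypes. A pseudogene, Gm13735, is 90.6% identical to Mxi1 over 679 bases and had at most 0.82 CPM.

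Mxd3 (chr13:55325168-55329823, minus strand), the Mxd gene known from cells in S phase, was too scattered to rank the states. It had 3.13, 2.13, 1.54 and 0.915 CPM in WT quiescent and 5.55 and 0.438 CPM in WT activated libraries, the last from 1 count. In KO it had 0.470, 2.87, 6.36 and 2.88 CPM in quiescent and 2.05 and 2.51 CPM in activated libraries. Its log2 fold change of 0.77 in WT (95% interval -0.96 to 2.50) and -0.46 in KO (-2.30 to 1.37) spans changes in both directions. Its exons share 105 bases with Prelid1 on the other strand, a gene at 28.2 to 42.4 CPM in quiescent and 95.4 to 120 CPM in activated libraries, and whether reads were counted by strand is not stated.

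Mga (chr2:119897228-119969581, plus strand), a large protein with a T-box beside its Max-binding part, rose in KO. It had 94.4, 65.9, 73.8 and 85.2 CPM in WT quiescent and 149 and 89.8 CPM in WT activated libraries. In KO it had 93.4, 66.1, 76.1 and 84.5 CPM in quiescent and 166 and 193 CPM in activated libraries. WT activated replicate 2 lay within the quiescent range, whereas both KO activated libraries lay above it. The rise was 2.24-fold in KO (log2 fold change 1.17, SE 0.25, adjusted p = 0.00125, edgeR), and in WT the value was 0.59 (SE 0.25, adjusted p = 0.0857). The WT value passed under DESeq2 (0.65, adjusted p = 0.0271), with DESeq2's size factors in edgeR (0.65, adjusted p = 0.0439), with genes of a mean count of at least 10 (0.67, adjusted p = 0.0313) and without WT activated replicate 2 (0.96, adjusted p = 0.0323). Without WT activated replicate 1 it was 0.25 (adjusted p = 0.650). The difference between the KO and WT rise was 0.58 (95% interval -0.19 to 1.34) and did not pass (adjusted p = 0.865).

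**Figure D2:**
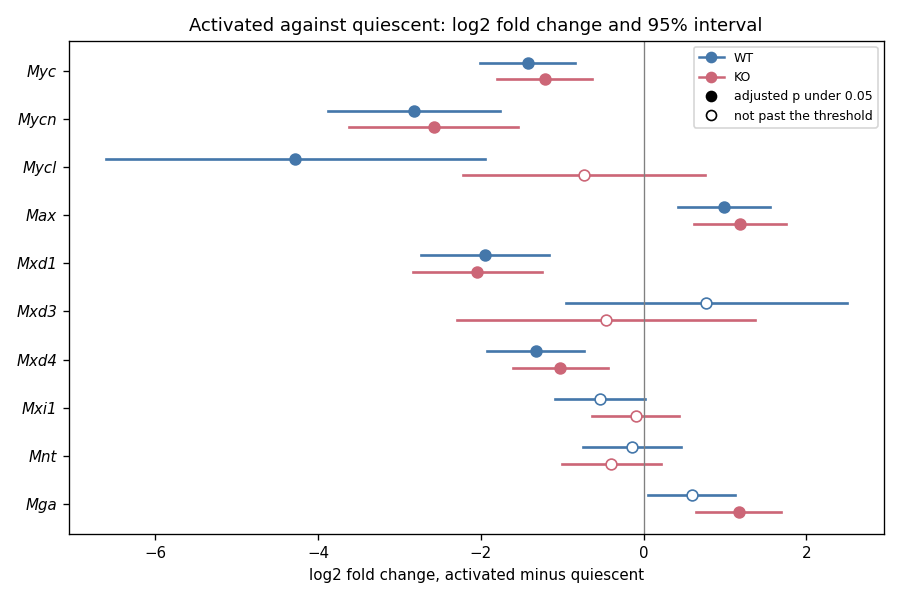
Log2 fold change of each member from quiescent to activated cells (x axis) in WT and KO (colours), with 95% intervals as lines and filled points where the adjusted p was under 0.05 in edgeR's test. Myc, Mycn, Mxd1 and Mxd4 lie to the left of 0 and Max to the right of 0 in both genotypes. The WT value of Mycl rests on 1 activated count and depends on the prior count of the fit.

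The proportions between the branches followed from these levels. On the scale per kilobase, Max equalled 2.40 to 4.02% of the Myc level in quiescent libraries and 16.2 to 20.5% in activated libraries, with no overlap. Max over the sum of the Mxd genes and Mnt was 0.570 to 1.06 in quiescent and 2.11 to 3.30 in activated libraries. The summed Myc, Mycn and Mycl level over the summed Mxd and Mnt level was 17 to 28.6 in quiescent and 12 to 17.4 in activated libraries. These ranges met at their ends. Mga, which also opposes Myc, was left out of that sum, and the ratio with Mga included was not computed. Its mean level was 5.20 in WT and 5.21 in KO quiescent libraries, and 7.80 and 11.7 in WT and KO activated libraries. Within the repressive branch the make-up changed: Mxd1 was 20.7% of the summed Mxd and Mnt level in WT quiescent and 8.66% in WT activated libraries, Mxd4 was 31.8 and 21.7%, and Mnt was 27.0 and 41.3%. In KO the shares were 18.2 and 7.21% for Mxd1, 29.8 and 23.9% for Mxd4, and 31.1 and 38.5% for Mnt. These are mRNA proportions, and no protein was measured.

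**Figure D3:**
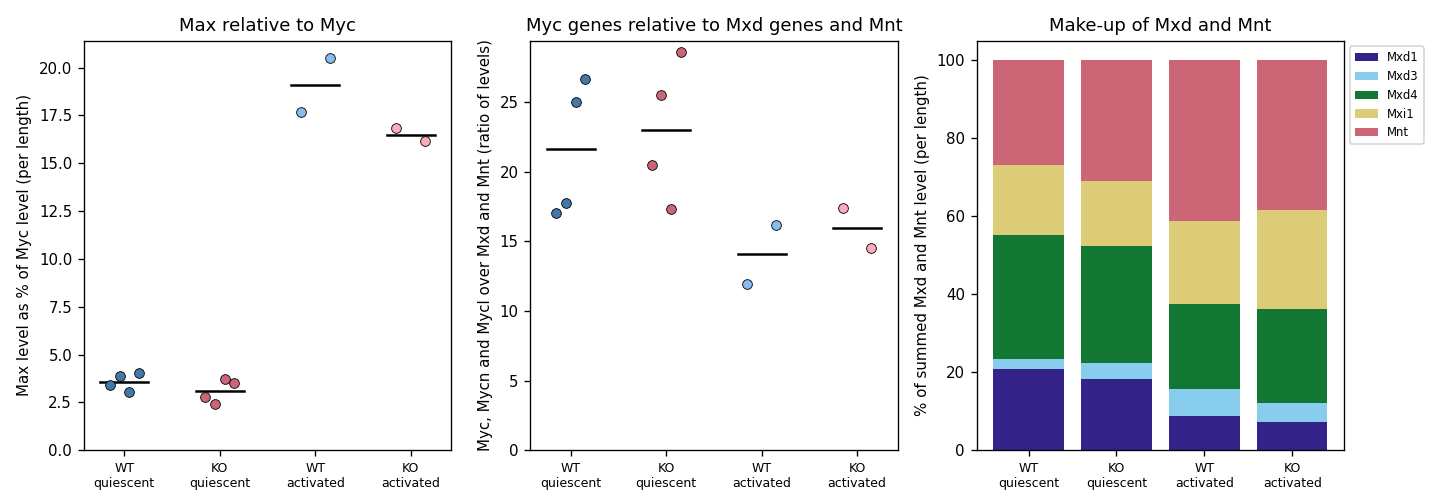
Left, Max level per length as a percentage of the Myc level in each library (points) with group means (lines), 2.40 to 4.02% in quiescent and 16.2 to 20.5% in activated libraries. Middle, summed Myc, Mycn and Mycl level over summed Mxd and Mnt level, without Mga, 17 to 28.6 and 12 to 17.4. Right, mean share of each gene in the summed Mxd and Mnt level (bars from 0 to 100%), in which Mnt goes from 27.0 to 41.3% in WT.

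No difference between the genotypes was detected for any member in quiescent cells. CXCR4 protein, which the paper found less reduced than its mRNA soon after tamoxifen, was not measured in these libraries. None of the 10 members passed the test between quiescent KO and WT libraries, beside 0.0155% of all tested genes, and 0 members had an unadjusted p under 0.05 in edgeR's test, beside 1.74% of all genes. DESeq2 called 0 as well. The genotypes overlapped in all 10 members, and 1.70% of all genes had no overlap. The Myc difference was 0.13 on the log2 scale (95% interval -0.32 to 0.57), so that a fold between 0.801 and 1.49 remained possible. The intervals of Max (-0.55 to 0.40), Mxd1 (-0.68 to 0.43), Mxd4 (-0.48 to 0.41), Mxi1 (-0.46 to 0.39), Mnt (-0.22 to 0.74) and Mga (-0.44 to 0.44) were of like width. Those of Mycn (-1.02 to 0.29) and Mxd3 (-0.66 to 2.08) were wider. Mycl, with 213 KO and 206 WT counts, had a ratio of 1.00 (0.826 to 1.22, counting error only).

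In activated cells 0 members passed between KO and WT, beside 0.0504% of all tested genes, and DESeq2 also called 0. A single member, Mycl, had an unadjusted p under 0.05 (adjusted p = 0.413, edgeR), beside 8.37% of all genes. It had 13 counts in the 2 KO libraries and 1 count in the 2 WT libraries, a ratio of 13.2 (95% exact interval 1.98 to 561, counting error only). The KO libraries lay above the WT libraries for 5 members, Myc, Mycl, Max, Mxi1 and Mga, whereas 24.7% of all tested genes separated in either direction and 15.2% with KO higher. For Myc, 793 and 854 against 679 and 629 CPM gave a log2 difference of 0.33 (95% interval -0.30 to 0.97, adjusted p = 0.878). The largest difference after that of Mycl was that of Mga, 0.58 (-0.05 to 1.21, adjusted p = 0.627). For Max the difference was 0.13 (-0.55 to 0.80), for Mxd1 -0.22 (-1.11 to 0.66) and for Mxd4 0.27 (-0.39 to 0.93).

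The difference of the KO effect between activated and quiescent cells passed for 0 of the 10 members, and for 0% of all tested genes. Mycl again had the only unadjusted p under 0.05 (adjusted p = 0.648, edgeR), beside 6.59% of all genes. For Myc this difference was 0.21 on the log2 scale (95% interval -0.57 to 0.98) and for Max 0.20 (-0.62 to 1.02). These comparisons use the same libraries as those between states and are no separate evidence.

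**Figure D4:**
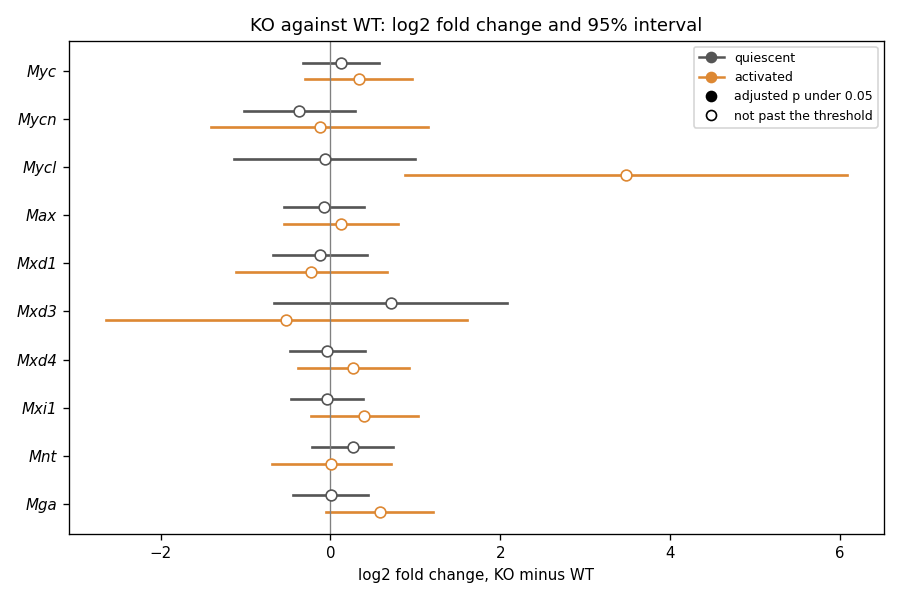
Log2 difference of each member between KO and WT (x axis) in quiescent and activated cells (colours), with 95% intervals as lines and open points where the adjusted p was 0.05 or more in edgeR's test. All 20 points are open, and only the interval of Mycl in activated cells, which rests on 1 WT count, lies apart from 0.

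The wider network was read from lists of genes around the members, to be set beside the 11.5% of all tested genes that rose and 18.3% that fell in WT, and the 13.3% and 20.4% in KO. In the neighbouring Mlx branch, which senses glucose and shares its E-box with Max pairs, the large partners fell on activation in WT: Mlxipl by 2.11 and Mlxip by 1.54 on the log2 scale (adjusted p = 0.00121 and 0.000337, edgeR). Mlx itself rose by 0.95 (adjusted p = 0.0455), from 8.67 to 11.2 CPM in quiescent to 18.5 and 19.3 CPM in activated WT libraries. In KO, Mlxipl (-1.97) and Mlxip (-1.42) passed and Mlx (0.72, adjusted p = 0.112) did not. The Myc relative Bmyc (-0.36 in WT and -0.28 in KO) did not pass, and Mycs had no count in activated libraries and at most 1.15 CPM in quiescent ones. The 4 Mondo and Mlx targets did not pass in either genotype.

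Of 13 coactivators and other partners of Myc, 4 rose and 2 fell in WT, where 11.5% of all tested genes rose and 18.3% fell. The paired ATPases Ruvbl2 and Ruvbl1 rose by 2.02 and 1.5 on the log2 scale, and Wdr5, which anchors Myc to chromatin, by 1.35. The acetyltransferase Kat5 fell by 1.35. In KO 5 rose and 3 fell, among them Ruvbl2 (2.22), Ruvbl1 (1.66), Wdr5 (1.53) and Kat5 (-0.92). Of 13 partners in the Sin3 corepressor, 2 rose and 5 fell in WT and 1 rose and 6 fell in KO: the deacetylase Hdac1 fell by 1.25 and 1.40 and Ing1 by 1.11 and 0.85, Suds3 rose by 1.06 and 1.43, and Sap30 rose in WT (1.68) but did not pass in KO (0.77, adjusted p = 0.0812).

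Mga's complex, PRC1.6, moved in both directions. Of its 9 other genes 4 rose and 3 fell in WT, and 5 rose and 2 fell in KO. L3mbtl2, Pcgf6 and E2f6, which define this variant, rose by 1.77, 1.35 and 1.24 in WT and by 1.91, 1.40 and 1.25 in KO. Rybp, which is shared with other variants, fell by 1.74 and 2.03. Among 10 tested genes of Myc protein turnover (of 11 listed) 3 rose and 1 fell in WT and 1 rose and 2 fell in KO, beside 29.8% of all tested genes past the threshold in WT and 33.7% in KO. The ubiquitin ligase Huwe1 fell by 2.04 and 1.79, while Fbxw7, the ligase that marks phosphorylated Myc for destruction, rose by 1.16 and 1.05. Fbxo28 rose by 1.15 in WT and was 0.59 in KO (adjusted p = 0.0879, edgeR), and Trim32 rose by 1.03 in WT and was 0.70 in KO (adjusted p = 0.142, edgeR).

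Genes known to be induced by Myc were mostly higher in activated cells, while Myc mRNA was lower. Of 30 such genes 19 rose, 1 fell and 10 did not pass in WT, with a median log2 fold change of 1.08 against -0.92 over all tested genes. In KO 19 rose, 2 fell and 9 did not pass, with a median of 1.06 against -0.96. Over the 9554 genes with an average log2 CPM over 3 the medians were -0.12 in WT and -0.09 in KO. Dkc1, which modifies ribosomal RNA, had 23.9 to 29.7 CPM in WT quiescent and 183 and 241 CPM in WT activated libraries, a log2 fold change of 3.01 (adjusted p = 3.4e-08, edgeR). Bop1, a ribosome assembly factor, rose by 2.49, Polr1b, a subunit of RNA polymerase I, by 2.43, and Srm, the spermidine synthase, by 2.29. In KO these 4 genes rose by 2.65, 2.31, 2.27 and 2.54. Nop58, of the same nucleolar group, fell by 0.98 and 0.83, and Ccnd2, a cyclin, fell in KO by 2.36 and was -0.93 in WT (adjusted p = 0.155). CACGTG occurred in 9 of 29 start windows of this list (31.03%), beside 7.15% of all windows. Over the 8 lists the share ran from 0% (Myc protein turnover) to 40% (Mondo and Mlx targets), and it was 16.67% for genes known to be repressed by Myc.

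Genes known to be repressed by Myc were lower or did not pass. Of 10 such genes 0 rose and 5 fell in WT, and 0 rose and 6 fell in KO, beside 18.3% and 20.4% of all tested genes that fell. The list's median log2 fold change was -1.22 in WT and -1.33 in KO, beside -0.92 and -0.96 over all tested genes. It was -0.12 and -0.09 over the 9554 genes with an average log2 CPM over 3. Ndrg1, named as a gene regulated downstream of Mycn, had 586 to 1567 CPM in WT quiescent and 137 and 65.2 CPM in WT activated libraries, a fall of 3.27 on the log2 scale. The cell cycle inhibitor Cdkn1b fell by 2.15, Gas1 by 1.92 and Gadd45a by 1.47, and in KO these 4 genes fell by 3.20, 1.88, 1.77 and 1.18. No gene of any of these lists passed in a comparison of KO and WT.

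**Figure D5:**
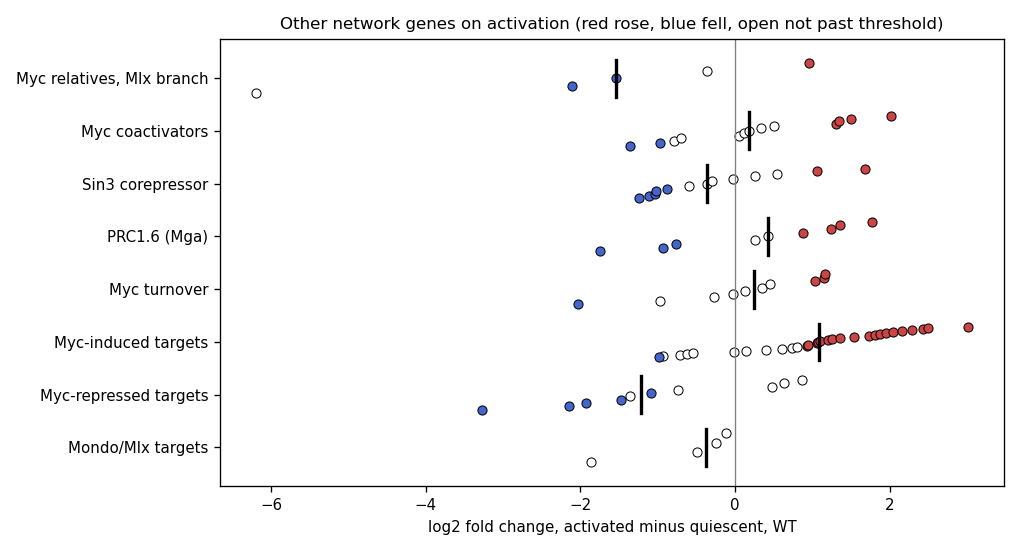
Log2 fold change from quiescent to activated WT cells (x axis) of every tested gene in the 8 lists around the members (rows); red points rose, blue points fell and open points did not pass, and the black bar is the median of the list. Among Myc-induced targets 19 of 30 points are red and 1 is blue, and among Myc-repressed targets 0 of 10 are red and 5 are blue. The open point near -6 is Mycs, which had no count in activated libraries.

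The genes whose profile over the 12 libraries lay closest to Myc and Max were sought among 12862 genes by the root mean square difference of log2 CPM after each gene was centred on its mean. For Myc they were Eif1 (0.118), Mfsd14a (0.127) and Hnrnpdl (0.147), which like Myc were lower in all 4 activated libraries than in any quiescent library. Eif1, for instance, had 993 to 1476 CPM in quiescent and 461 to 723 CPM in activated libraries. For Max they were Gorasp2 (0.107), Atxn7l3b (0.107) and Tmed2 (0.119), and Gorasp2 had 39.7 to 81.0 CPM in quiescent and 107 to 139 CPM in activated libraries. Mycl, whose fitted fall in WT was the largest of the members but rests on 1 activated count, was too weakly expressed for this search. These are descriptions of 12 libraries that share their depth and state.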

How the data were processed

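RNA-seq of 12 libraries of Pax7-ZsGreen+ satellite cells was analysed. The authors trimmed reads with Trim Galore 0.6.0, mapped them to GRCm38.p6 with STAR 2.7.2a and assigned them to GENCODE genes by Rsubread. The deposited counts are not normalized. How multimapping reads and strand were treated is not given in the sources used here. The deposited FPKM hold 1 value per group, and how libraries were pooled is not given. Of 55401 genes, 25771 passed edgeR's filterByExpr. One edgeR 4.0.16 model (R 4.3.3, TMM scaling) with a mean per group was tested by quasi-likelihood F tests with Benjamini-Hochberg adjustment, and the SE is the size of the log2 fold change over the root of F. The script was tested on simulated data. Alternatives were other scalings, filters, call rules and tools (DESeq2 1.42.0), a robust fit, the compared groups alone, a replicate block and leaving out each library. Exon lengths and loci come from GENCODE M21 on GRCm38, similar transcripts from blastn 2.17.0 and start windows from RefSeq, of 250 bases before and 50 after the start. Library depth was 3172164 to 23717013 counts, and counting intervals cover counting error only. Named genes were all members and, per list, up to 4 genes with the largest log2 fold change past the threshold in WT between states. The 3 genes closest to Myc and to Max were named. The rule also asked for those closest to the members with the highest and lowest log2 fold change past the threshold in WT, which were Max and Mycl, and Mycl was too weakly expressed to be searched. Named too were all genes of the Mlx branch and the few that a limit on a member required; Ccnd2, Nop58 and the overlapping or similar genes were chosen after their values were seen. Members and lists were chosen with earlier results of these data known. From the list of Myc protein turnover 1 gene is not reported here.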

Additional observations from a re-analysis of the deposited data

Results flagged for a closer look

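Mycn in KO quiescent replicate 3 stood apart from the other 3 libraries of its group. It had 19.8 CPM and the nearest other library 13.7 CPM, a gap of 0.87 of the whole range of the group, above Dixon's critical value of 0.829 for 4 libraries. Of 20 groups of 4 quiescent libraries tested in this way, 1 passed that value, and chance gives about 1 in 20. No explanation was tested.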

How the results depend on the processing

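The number of members past the threshold was 5 to 7 in WT activated against quiescent cells and 6 in KO under the alternatives, and 5 to 6 and 4 to 6 when 1 library was left out. It was 0 throughout for KO against WT in either state and for the difference of the KO effect. Max in WT (0.98) missed a rule that also asked for a log2 fold change over 1. Fitting without CT010467.1, chosen after the data were seen, left 6 members in WT and 6 in KO. No called value changed sign, while values that did not pass changed sign in 6 cases under the alternatives and in 38 with 1 library left out. Over all genes the counts of calls moved more: 6906 to 8411 in WT and 7781 to 9401 in KO, 3 to 50 and 2 to 334 for KO against WT in quiescent and activated cells, and 0 to 170 for the difference, and with 1 library left out 4524 to 8026, 5066 to 8780, 3 to 7, 0 to 211 and 0 to 82. The replicate numbers are shared by groups. Same-numbered quiescent WT and KO libraries deviated together with correlations of -0.05 to 0.296, over 0.1 in 2 of 4 pairs. Differently numbered ones had -0.208 to 0.0753. In activated groups of 2 libraries the deviations mirror each other, so their correlation of -0.024 cannot show a pairing. Whether the numbers pair the libraries was therefore not settled. With the replicate number as a block 6 members passed in WT and 6 in KO, and 0 in each comparison of KO and WT. The shallow activated libraries limit Mycl, Mycn and Mxd3 most, and a single activated library decided the calls of Max and Mycl in WT and of Myc and Mxd4 in KO.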
